A study of Drosophila melanogaster with 28 samples.

Results

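The comparison described here is the translational efficiency of Mettl1 knockout testis against wild-type (WT) testis of Drosophila melanogaster, measured in the first of the study's testis sets. Translational efficiency is the level of ribosome footprints on a transcript relative to the level of that transcript in RNA-seq. The 8 libraries of this set were taken from the 28 libraries of the series by their titles. They comprised 2 footprint and 2 RNA-seq libraries from WT males (y1 w1118) and 2 of each from Mettl1-KO males, whose allele the labels give as Mettl1KO1. All testes came from adults aged 2 to 3 days, were dissected in the presence of cycloheximide at 100 µg/ml and were pooled at 600 pairs per sample. The digit after WT or KO in the titles was read as a replicate number, although in the body libraries of the series the digit after KO marks separate groups. Nothing in the labels says that replicates were independent cultures of flies, so p-values measure the spread between these pools.

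Mettl1 is the catalytic subunit of the methyltransferase that places 7-methylguanosine (m7G) in the variable loop of a subset of tRNAs. In other animals this mark protects tRNAs from decay, and its loss slows ribosomes at codons read by the affected tRNAs. In the fly testis, germ cells transcribe most genes of sperm formation in spermatocytes and store many of these mRNAs for translation in spermatids, so RNA level and ribosome occupancy of a transcript can part.

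Totals over 14823 loci were 8427766 to 12819604 counts in the RNA-seq libraries and 315983 to 2617131 in the footprint libraries. The shallowest footprint library was knockout replicate 1, and between 5328 and 10183 loci reached 10 footprint counts in a library. A locus is a transcript together with the neighbouring transcripts that carried near-identical counts, since isoforms share reads. The reference tables pair 10 of the 34703 transcript identifiers with a gene symbol, so loci other than these are given by FlyBase transcript identifier. The transcript of Mettl1 itself and the markers of testis cell types were not analysed here, and the genotype and tissue labels were therefore not checked against them. Overlapping, antisense and near-identical genes may share counts, because how strand and multiple mapping were handled is not given in the sources used here.

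Translational efficiency changed mostly downwards in the knockout. Of 12066 loci tested, 445 were lower and 21 were higher in knockout testis by edgeR's quasi-likelihood test of the assay-by-genotype interaction at an adjusted p under 0.05, which is 3.69% and 0.174% of the loci tested, or 3.86% in either direction. Among the lower loci the median change was -1.74 on the log2 scale, with quartiles of -2.34 and -1.37. At least a 2-fold fall was estimated for 425 of the 445, and at least a 4-fold fall for 170. The 21 higher loci had a median change of 1.21. All changes are relative to the bulk of loci, because the scaling sets the median near 0. With library totals in place of TMM scaling, the median of all loci moved by 0.44 and the calls were 630 higher and 369 lower, so the balance of higher and lower calls depends on the scaling. The number of lower calls was 263 without footprint WT replicate 1, 251 without RNA WT replicate 1 and 263 without RNA WT replicate 2. Without knockout replicate 1 in both assays it was 671, and without knockout replicate 2 it was 725. With WT replicate 1 or 2 left out of both assays, edgeR called 0 loci lower, with 608 and 909 lower at an unadjusted p under 0.05. The 445 loci kept a negative estimate in each of these fits in which they were tested. They were chosen for a fall in a fit of the same libraries, so the kept sign is no separate support.

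**Figure D1:**
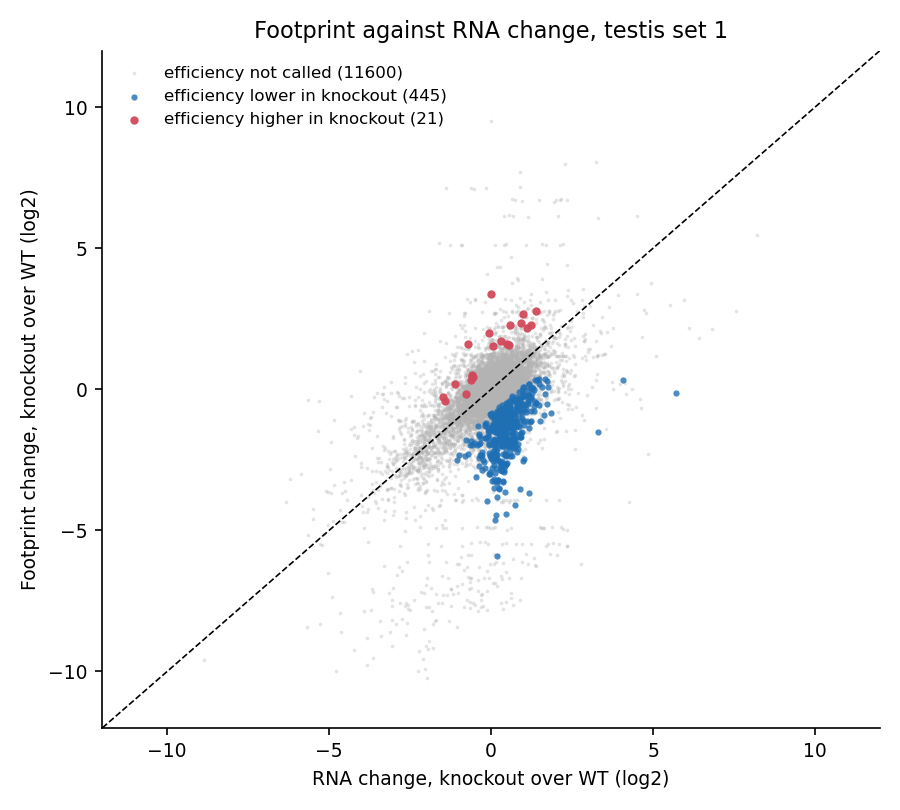
Each point is 1 of the 12066 loci, with its RNA change on the x axis and its footprint change on the y axis, both knockout over WT on the log2 scale from the joint fit. The dashed line marks equal change. The 445 loci called lower in efficiency (blue) lie below the line, mostly where RNA change is near or above 0, and the 21 called higher (red) lie above it.

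The lower loci were divided by what RNA and footprints did in fits of each assay alone. RNA-seq gave 4771 calls among 11905 loci (40.1%), of which 21.5% of loci were higher and 18.6% lower. Footprints gave 863 calls among 7811 loci (11.0%), with 2.65% of loci higher and 8.40% lower. Of the 445 loci of lower efficiency, 147 had fewer footprints at an RNA level that was not called, with medians of -1.74 for footprints and 0.15 for RNA. A further 140 had more RNA and fewer footprints, with medians of 0.56 and -1.40. At 113 loci RNA was higher and footprints were not called, with medians of 0.93 and -0.53. RNA and footprints were both lower at 26 loci, where footprints changed by a median of -2.26 and RNA by -0.38. The remaining 19 had no footprint call or were not tested in footprints. In all, 259 of the 445 were called higher in RNA and none was called higher in footprints. A footprint estimate above 0 in the joint fit was found at 16 of the 445. These loci were chosen for a fall of footprints relative to RNA in the same libraries, so more RNA or fewer footprints partly follows from that choice. In the top quintile of RNA abundance, which held 401 of the 445, 1063 of 2413 loci were called higher in RNA. There 139 were called higher in footprints and 429 lower.

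The loci of higher efficiency formed different classes. In 9 of the 21, both RNA and footprints were higher, with medians of 0.93 and 2.28. In 8, RNA was lower while footprints were not called. Their WT efficiency was low, with a median log2 footprint over RNA level of -1.74 against 0.02 over all loci tested, and 13 of the 21 lay in the lowest quintile of WT efficiency. WT libraries enter both the WT efficiency and the change, so noise in them moves these measures in opposite directions.

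Most loci of lower efficiency had abundant RNA. Loci were ranked by their mean log2 CPM over the 4 RNA-seq libraries and cut into quintiles of about 2413 loci. The most abundant quintile held 401 of the 445 lower calls, or 16.6% of its loci, against 33, 6, 3 and 2 in the quintiles below it. Precision rose with abundance, the median standard error being 1.23 in the least abundant quintile and 0.23 in the most abundant, so counts of calls follow depth as well as change. The median change was -0.24 in the most abundant quintile and 0.06, 0.07, 0.05 and -0.09 in the successive quintiles below it. The RNA-seq libraries that set the abundance are also the denominator of the change. When the level in WT footprints of the second set was used instead, the top quintile had a median of -0.10 and the lowest of -0.16, and the difference of the top from the rest was -0.12 in place of -0.28. In the most abundant decile of RNA the median was -0.42, and 72.5% of the loci there had a negative estimate. There the median RNA change was 0.34 and the median footprint change -0.15. With TMM scaling the medians of RNA and footprints in this decile thus lay on opposite sides of 0. The scaling sets where 0 lies. With library totals the median efficiency change of the most abundant quintile was 0.20, and its difference from the rest was still -0.28.

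**Figure D2:**
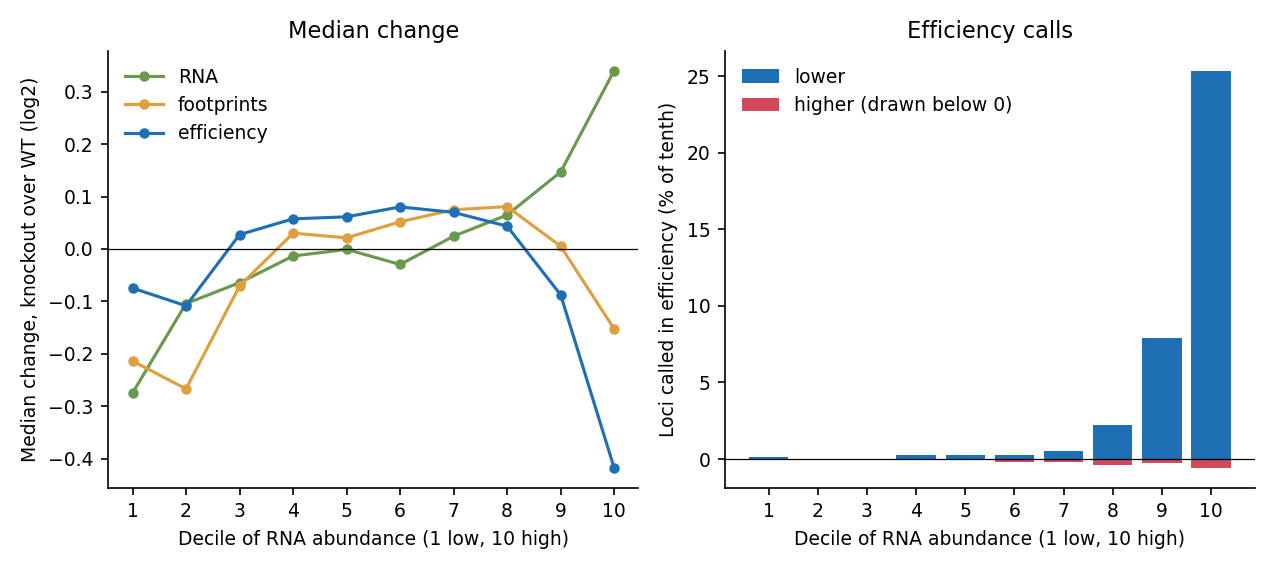
The left panel gives the median log2 change, knockout over WT, of RNA, footprints and efficiency in each decile of RNA abundance, and the right panel gives the percentage of loci of each decile called lower (blue, upwards) or higher (red, downwards) in efficiency. In the top decile the medians of RNA and efficiency part to 0.34 and -0.42, and 25.4% of its loci were called lower.

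The separate libraries gave the same order. Median efficiency of the most abundant quintile minus that of all other loci was -0.39 and -0.51 in the WT footprint libraries and -1.01 and -0.67 in the knockout libraries, each footprint library being set against the mean RNA level of its genotype. The genotypes did not overlap, and knockout replicate 1 lay furthest from WT. The median change of the most abundant quintile differed from that of the rest by -0.28. The pooled SD between replicate footprint libraries (n = 2 per genotype) was 0.18, and leaves out the spread of RNA-seq replicates. With 2 libraries against 2, the smallest two-sided p that an exact permutation test can give is 0.333, so that test cannot pass 0.05 here. The difference ranged from -0.50 without knockout replicate 2 in both assays to -0.13 without knockout replicate 1, so its size rests on the knockout replicate used. The replicate numbers of the knockout footprint and RNA-seq libraries are not stated to mark the same pools, and may be crossed, since replicate differences of the assays correlated at -0.87 in the knockouts and 0.35 in WT over 3886 loci. In this quintile both knockout libraries lay below both WT libraries at 1146 of 2413 loci and above them at 450. Over all 12066 loci the counts were 2905 below and 2618 above, and 3.69% and 0.174% of loci were called.

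The counts behind the shift can be seen in the libraries directly. The most abundant decile took 60.5% and 60.7% of the RNA counts in WT replicates 1 and 2, and 66.6% and 64.9% in the knockout replicates. Of the footprint counts it took 55.9% and 56.5% in WT and 53.5% and 56.3% in the knockouts. Knockout RNA lay above WT RNA in both replicates, whereas the footprint shares of the genotypes overlapped.

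Loci of lower efficiency were also mostly testis-biased. Testis bias was taken from libraries outside the comparison, as the log2 ratio of WT footprints in the second testis set over WT footprints in body. Its median was 4.10 among the 445 lower loci, 3.04 among the 21 higher loci, 2.13 in the most abundant quintile and 0.02 over all loci tested. The most testis-biased quintile held 341 of the lower calls. The calls lay mostly where abundance and bias were both high. Of 1136 loci in the top quintile of both, 315 (27.7%) were called lower and the median efficiency change was -0.54, with a median RNA change of 0.35 and a median footprint change of -0.28. Of the 1277 other loci of the most abundant quintile, 86 (6.73%) were called lower, at a median of -0.05 and a similar standard error (0.22 against 0.25). These were less abundant, with a median of 7.35 against 7.83 on the log2 CPM scale, so abundance differs between the groups as well. Of the 1277 most biased loci of lower abundance, 26 were called lower, at a median of -0.01.

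Footprints on the most testis-biased quintile were 42.3% and 41.1% of the library in WT and 36.9% and 41.4% in the knockouts, so knockout replicate 2 lay within the WT range. The share of RNA on this quintile was 49.0% and 48.6% in WT and 55.4% and 52.4% in the knockouts, with no overlap. In bulk testis, fewer cells of a type and less RNA per cell cannot be told apart, and the part of cell composition in these changes was not tested.

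**Figure D3:**
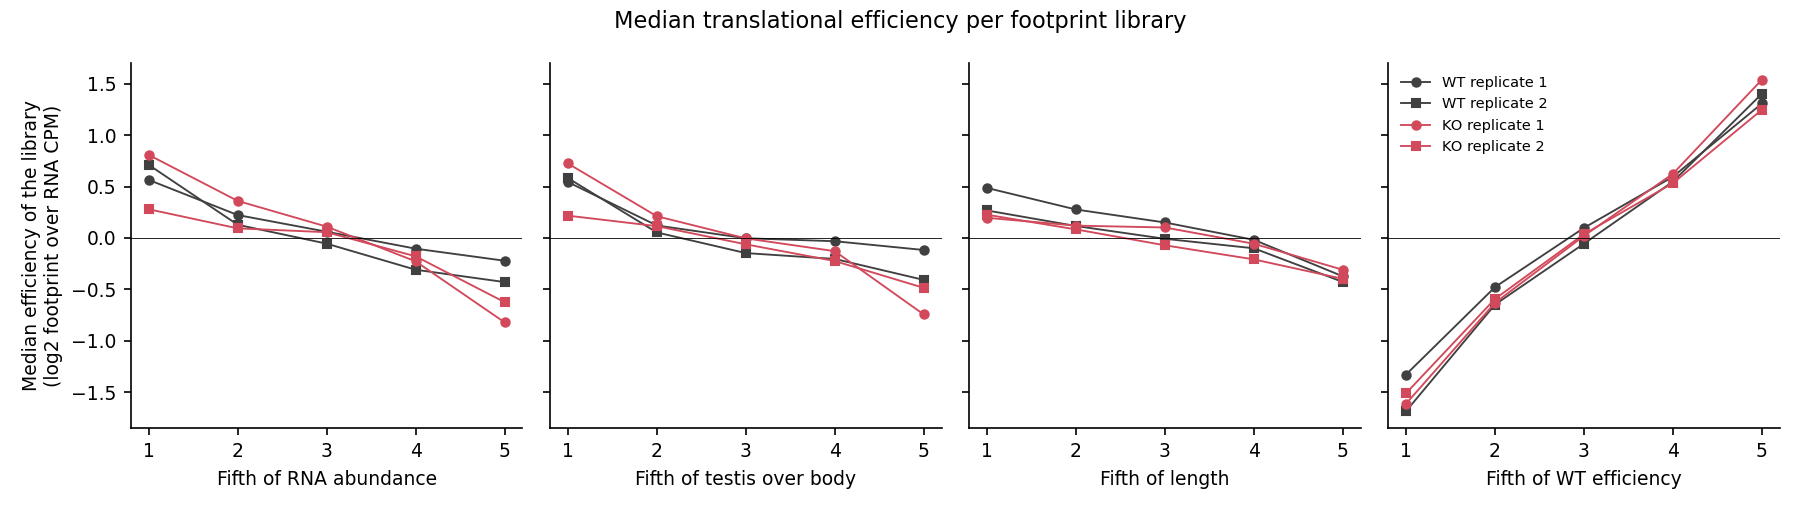
Median translational efficiency (log2 footprint over RNA CPM) of each footprint library in quintiles, from low to high, of RNA abundance, testis over body ratio, length and WT efficiency, WT in grey and knockout in red, circles for replicate 1 and squares for replicate 2. In the top quintile of abundance the knockout medians were -0.82 and -0.62 and the WT medians -0.22 and -0.43. In quintiles of WT efficiency the 4 lines run close together.

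The length that the files give for each transcript has no stated unit. Its values run from 2 to 22940 with a median of 459, and leave remainders of 0, 1 and 2 on division by 3 in 33.1%, 34.1% and 32.9% of transcripts, an even spread that coding lengths in bases would not have. The median efficiency change was lower on short loci than on long ones. It ran from -0.10 in the shortest quintile (length 12 to 197) through -0.01, -0.02 and 0.00 to 0.07 in the longest (795 to 22940), and 100, 99, 84, 105 and 57 loci were called lower in the same order, so the calls were fewer in the longest quintile and did not fall steadily with length. Standard errors were 0.41 in the shortest and 0.34 in the longest quintile. The difference between the longest and the shortest quintile was 0.17, against a pooled SD of 0.10 between replicate footprint libraries. That SD leaves out the spread of RNA-seq replicates, and a difference above it is not thereby beyond replicate spread. Library by library, the shortest quintile was more efficient than the longest by 0.86 and 0.69 in WT and by 0.51 and 0.62 in the knockouts. Short loci were thus the more efficient ones in each of the 4 libraries, and by a smaller margin in both knockouts. The difference was 0.03 without footprint WT replicate 1 and 0.31 without knockout replicate 2 in both assays.

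Within the most abundant quintile, the length pattern was a contrast of the longest loci with all others. Of its 483 loci longest in length (913 to 18431), 8.90% were called lower, at a median change of -0.01. The other 4 length quintiles of these abundant loci had 15.3% to 21.0% called lower, and medians of -0.34 to -0.24. Long abundant loci had a median RNA change of 0.13 and a footprint change of 0.09, while the shortest had 0.35 and -0.03. Outside the most abundant quintile the medians ran from -0.04 in the shortest to 0.10 in the longest loci, and at most 0.880% were called lower in any length quintile. Testis-biased loci were shorter, with a median length of 290 in the most biased quintile and 468 in the least biased, so length and bias vary together. In a linear fit of the change on abundance, log length, WT efficiency and bias together, the change per SD was 0.06 for length and -0.05 for bias over all loci, with 1.02% of the variance described. At the 3886 loci with a mean of at least 50 counts it was 0.11 and -0.12, with 25.1% described by all terms together. Abundance had the largest change per SD there, -0.26, against -0.05 over all loci. That of WT efficiency was 0.06 there and -0.07 over all loci.

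**Figure D4:**
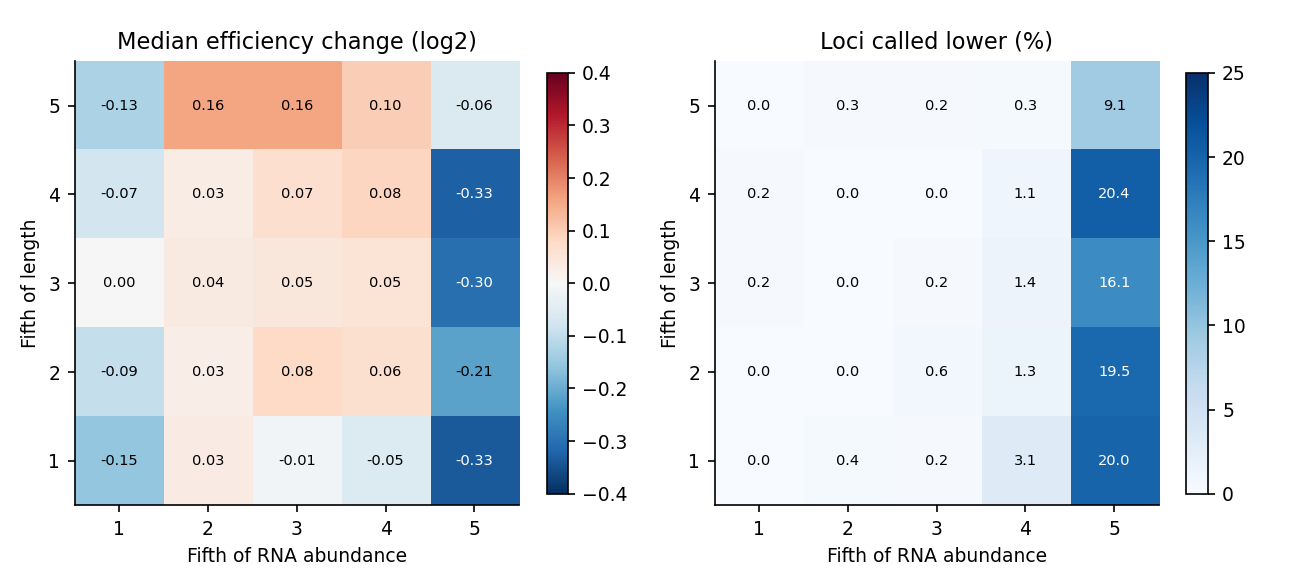
Loci were divided by quintile of RNA abundance (x axis) and of length (y axis), each from low to high. The left grid gives the median log2 efficiency change and the right grid the percentage called lower. With TMM scaling the most abundant column is negative at each length, from -0.33 in the shortest row to -0.06 in the longest. Of its loci, 9.12% were called lower in the longest row against 20.0% in the shortest.

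Fewer loci were called lower at high WT efficiency, while over all loci the median change followed no such order. In quintiles from the least to the most efficiently translated loci in WT, 132, 150, 90, 51 and 22 loci were called lower. These are 5.47%, 6.22%, 3.73%, 2.11% and 0.912% of each quintile. Median abundance on the log2 CPM scale was 5.12 in the least efficient quintile and 3.10 in the most efficient, so counts of calls follow depth here as well. The median change was 0.00, -0.04, -0.02, 0.01 and 0.00 in the same order. The difference between the end quintiles, 0.01, was within the pooled SD of 0.30 between replicate footprint libraries. It was 0.20 when WT replicate 1 set the quintiles and the change was measured against WT replicate 2, and 0.24 the other way round, both within that SD. With quintiles set by WT footprints of the second set over WT RNA of the first, it was 0.22, also within that SD. Without footprint WT replicate 1 it turned to -0.83. In that fit the only WT footprint library entered both the quintiles and the change, so its noise moves them in opposite directions. No direction is given over all loci. Within the most abundant quintile the medians were -0.38, -0.38, -0.37, -0.18 and 0.07 from the least to the most efficient loci, and with a mean of at least 50 counts the difference was 0.51. Among the 3886 loci with a mean of at least 50 counts in each assay, Spearman's rho between WT efficiency and the change was 0.31, that with RNA abundance was -0.40, with testis bias -0.33 and with length 0.08. These describe loci that share all 8 libraries, and the count minimum itself removes poorly translated loci of low abundance.

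The median changes of RNA and of footprints both fell across the quintiles of WT efficiency. WT footprints set these quintiles and are also the reference of the footprint change. Noise in them alone would give a fall of the footprint change. The median RNA change ran from 0.29 in the least efficient quintile to -0.24 in the most efficient, and the median footprint change from 0.25 to -0.25. In the second testis set, whose libraries did not set the quintiles, the footprint change was -0.04 at the low end and 0.03 at the high end. The fall of footprints was thus not seen there.

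Among abundant loci with TMM scaling, the footprint change was close to the RNA change where RNA was lower and smaller than it where RNA was higher. With library totals the median efficiency change of the most abundant quintile was 0.20 in place of -0.24. Which group had the closer changes thus depends on the scaling. Of the most abundant quintile, 452 loci had less RNA in the knockout, with a median RNA change of -0.44 and a median footprint change of -0.45. The 1063 loci with more RNA had a median RNA change of 0.63 and a median footprint change of 0.24. RNA enters the efficiency, so the medians of -0.44 for the efficiency of loci with more RNA and 0.08 for that of loci with less RNA are not independent of how these loci were grouped. Footprints of the second set share no library with that grouping. There the medians were 0.16 for the 1063 loci and -0.44 for the 452. Of the 1063, 32.1% were called higher and 19.4% lower in the second set, and of the 452, 1.33% were called higher and 52.9% lower.

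The second testis set gave a further 4 footprint libraries, 2 WT and 2 Mettl1-KO, which did not enter the comparison above. The allele of these knockouts is not stated beyond the shared protocol. Footprints there were called lower at 1782 of 11625 loci (15.3%) and higher at 1287 (11.1%). Of the 445 loci of lower efficiency in the first set, 444 were tested, 349 (78.6%) were called lower and 13 higher, and 405 had a negative change. In the most abundant quintile as a whole, 29.4% were called lower. The median footprint change of the 445 loci was -1.32 in the first set and -1.16 in the second. Of the 313 loci that had fewer footprints in the first set, 298 were called lower in the second and none higher. Of the 123 whose footprints were tested but not called in the first set, 48 were called lower and 12 higher, with a median of -0.38. Of the 21 loci of higher efficiency, 14 were called higher and 3 lower. In the second set, footprints were called lower more often on short loci, with 21.5% of the shortest quintile called lower against 8.53% of the longest, and median changes of -0.10 and 0.08. In the first set the median footprint change of these quintiles was 0.00 and 0.12, and that of RNA 0.12 and 0.07. The knockout effect on footprints differed between the sets at 0 of 11761 loci by edgeR's test of the interaction of set and genotype, with 1691 loci under 0.05 before adjustment and a smallest adjusted p of 0.0503. DESeq2's Wald test called 280 loci.

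When footprints of the second set were put over RNA of the first set, 1411 loci were called lower and 703 higher, and 408 of the 445 loci were among the 1411. RNA-seq is the same in both, so this bears on the footprint term alone. The second set also has 4 RNA-seq libraries, with totals of 125357 to 174163 counts and 1945 to 2699 loci of at least 10 counts. Total RNA-seq and total footprint counts of the 14823 loci had a Spearman's rho, given as a description, of 0.43 there and 0.92 in the first set. With the second set's own RNA-seq, edgeR called 238 loci lower and 202 higher in efficiency. Of the 445 loci, 89 were among the 238 and 388 had a negative estimate. Most of the first set's lower calls were thus not called in the second set with its own RNA-seq.

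The loci with the largest changes were named by a fixed rule that took called loci averaging 3 or more on the log2 CPM scale, with 10 or more counts in each RNA-seq library and in both footprint libraries of the genotype with more footprints, and with no overlap of genotypes in efficiency. The rule was met by 435 lower and 19 higher loci, of which 2 of each are given, because the files do not pair identifiers with gene names. They were chosen for a change without overlap in the first set, so separation of the genotypes there is no separate support. Adjusted p-values are from edgeR's quasi-likelihood test, and levels are TMM-scaled CPM in replicates 1 and 2.

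FBtr0072566, a short locus of length 149, lost nearly all footprints at an RNA level that was not called as changed. Its footprints were at 53.2 and 39.3 CPM in WT and at 0 and 1.07 CPM in the knockouts, which is 154 counts in WT and 1 count in the knockouts. Its RNA was at 166 and 168 CPM in WT and at 216 and 163 CPM in the knockouts. The footprints of the genotypes are far apart, while the RNA of knockout replicate 2 lies just below both WT libraries. The ratio of knockout to WT footprints was 0.0154, with an exact 95% counting interval of 0.000387 to 0.0871 that covers counting error only. The efficiency change was -6.09 (SE 0.61, adjusted p = 0.00115), but its size rests on 1 knockout count, and it was -5.63 without footprint knockout replicate 1 and -11.3 without replicate 2. In the second set its footprints went from 77.0 and 72.1 CPM in WT to 6.66 and 5.15 CPM in knockouts, a change of -3.65 on the log2 scale. Here too both knockout libraries lay below both WT libraries. Its call was lost with WT replicate 1 or 2 left out of both assays (adjusted p = 0.273 and 0.0535).

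FBtr0084903, of length 155, had footprints at 80.2 and 50.7 CPM in WT and at 8.46 and 1.07 CPM in the knockouts. The knockout libraries hold 3 and 1 counts, and lie below both WT libraries. Its RNA was at 77.7 and 77.2 CPM in WT and at 118 and 96.4 CPM in the knockouts, and was called higher. The efficiency change was -4.90 (SE 0.61, adjusted p = 0.00313), and the footprint ratio was 0.0418, with an exact 95% counting interval of 0.0113 to 0.108. The change was -6.44 without footprint knockout replicate 1 and -3.48 without replicate 2. The call was lost with WT replicate 1 or 2 left out of both assays (edgeR adjusted p = 0.282 and 0.0596). In the second set its footprints were at 79.7 and 82.1 CPM in WT and at 2.31 and 2.66 CPM in knockouts. Both loci thus had few footprints in each of the 4 knockout libraries of the sets.

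FBtr0084600, of length 468, was poorly translated in WT. Its footprints were at 8.18 and 9.81 CPM in WT, from 20 and 6 counts, and at 33.8 and 34.3 CPM in the knockouts. Its RNA was at 148 and 160 CPM in WT and at 160 and 137 CPM in the knockouts, overlapping ranges that were not called as different. The efficiency change was 2.04 (SE 0.26, adjusted p = 0.00388). In the second set its footprints were at 25.6 and 36.6 CPM in WT and at 64.1 and 59.0 CPM in knockouts, and were called higher. The genotypes did not overlap in the second set, which the naming rule did not use.

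FBtr0079526, of length 194, had footprints at 9.82 and 4.91 CPM in WT, from 24 and 3 counts, and at 47.9 and 38.5 CPM in the knockouts. Its RNA was higher as well, at 64.5 and 76.4 CPM in WT and at 113 and 97.7 CPM in the knockouts. The efficiency change was 1.70 (SE 0.34, adjusted p = 0.0320). This call was lost under 11 of 23 alternatives, with an adjusted p of 0.0641 when the replicate number was a block. In the second set its footprints rose from 23.5 and 29.5 CPM to 67.5 and 60.5 CPM.

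**Figure D5:**
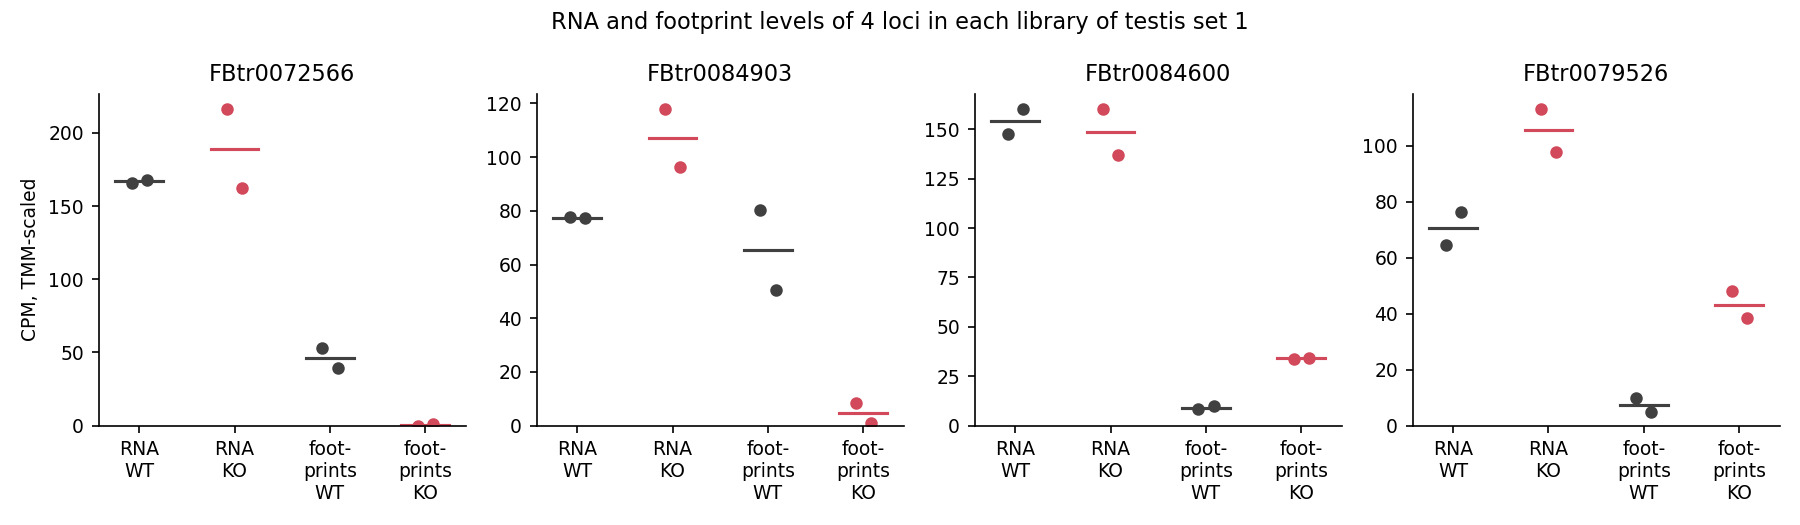
RNA and footprint levels (TMM-scaled CPM, axes starting at 0 and scaled per locus) of 4 loci in each library of testis set 1, WT in grey and knockout (KO) in red, with a bar at the mean of 2 replicates. Footprints of FBtr0072566 and FBtr0084903 drop to between 0 and 8.46 CPM in the knockouts, and those of FBtr0084600 and FBtr0079526 reach 33.8 to 47.9 CPM.

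The 10 identifiers that the reference tables pair with a symbol were tested as well. They were taken because they have a name, and none passed the threshold for efficiency. The locus of kis, which encodes a chromatin remodeller of the CHD family, came closest, with a change of 0.78 (SE 0.21, edgeR adjusted p = 0.0987). Its footprints were at 70.3 and 63.8 CPM in WT and at 107 and 123 CPM in the knockouts, while its RNA was at 228 and 261 CPM in WT and at 253 and 238 CPM in the knockouts. Footprints of the genotypes do not overlap and RNA levels do. In the second set its footprint change was -0.20 and was not called, so the first set's footprint difference was not seen there. DESeq2's Wald test gave the efficiency of kis an adjusted p of 0.00747, and edgeR with a mean of at least 50 counts gave 0.0117.

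Wdr59, mio and Wdr24 encode components of GATOR2, a complex that activates TORC1 signalling when amino acids are present. The locus of Wdr59 had RNA at 69.0 and 70.5 CPM in WT and at 213 and 172 CPM in the knockouts, a called rise of 1.39 on the log2 scale. Its footprints were at 12.7 and 21.3 CPM in WT and at 39.5 and 37.5 CPM in the knockouts, so both measures were higher in both knockout libraries and the efficiency change was -0.13 (SE 0.33). Footprints of Wdr59 were called higher in the second set by 0.69, less than the RNA rise of the first set, and second-set footprints over first-set RNA gave a called efficiency change of -0.78 (edgeR adjusted p = 0.0351). The locus of mio had an RNA change of -0.39, called lower, and an efficiency change of 0.00 (SE 0.33). Wdr24 rested on 2 to 15 footprint counts per library, and its change of -1.14 had an SE of 0.67, so no change of that size was detectable at this depth.

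Of the remaining named loci, sle, LanA and Uba1 had RNA calls. The locus of sle, whose product is a nucleolar protein, had RNA at 661 and 638 CPM in WT and at 478 and 427 CPM in the knockouts, and footprints at 638 and 494 CPM in WT and at 361 and 491 CPM in the knockouts. Its RNA was called lower, and its efficiency change was 0.12 (SE 0.26). Uba1, the ubiquitin-activating enzyme, had RNA at 426 and 394 CPM in WT and at 593 and 564 CPM in the knockouts, which was called higher, and an efficiency change of -0.22 (SE 0.17). LanA, a laminin alpha chain, had an RNA change of 0.30 that was called and an efficiency change of 0.30 (SE 0.18). The loci of alpha-Spec, a spectrin of the membrane skeleton, and His4r, a histone H4 gene whose reads may be shared with the other H4 copies, had efficiency changes of 0.36 (SE 0.18) and 0.31 (SE 0.17). That of the kinase Dyrk3 was 0.18 (SE 0.40). With library totals in place of TMM scaling, which raises all changes, kis, alpha-Spec and His4r were called higher.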

How the data were processed

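Footprints and RNA-seq of testis were analysed from 8 libraries. The deposited values are raw counts per FlyBase transcript, as whole numbers without a header, beside a number per transcript taken as a length. The submitters' processing notes name CASAVA 1.8, STAR 2.7.0a and build dm6. Per the labels' protocols, footprints were amplified by in vitro transcription. The counter, its use of strand and the annotation release are not given in the sources used here.

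Transcripts within 50 lines whose counts over all 28 libraries lay within a Bray-Curtis distance of 0.1 were collapsed to the one with most counts, giving 14823 loci. Tests on these counts used edgeR 4.0.16 under R 4.3.3 (quasi-likelihood test, TMM scaling, filterByExpr with a minimum count of 10, Benjamini-Hochberg adjustment over all loci tested). The interaction was fitted over the 8 libraries, and each assay alone over 4. RNA and footprint medians are from the joint fit. Log2 CPM used a prior count of 2. Standard errors are the change over the root of F. The value for abundance is the most abundant quintile minus the rest, and for length and WT efficiency the highest minus the lowest quintile. The naming rule is given with its loci. All comparisons, quintiles and lists were chosen with earlier results of these data known. The fits were tested on simulated data. DESeq2 1.42.0 was an alternative. Intervals cover counting error only, since reads carry no stated molecular identifiers.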

Additional observations from a re-analysis of the deposited data

How the results depend on the processing

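The counts of efficiency calls (466, with 445 lower and 21 higher) varied with the processing as follows. The settings listed are ones in which any of these counts moved by over 1.5 times, and the other counts given there moved less. With library totals 999 were called, 630 of them higher. DESeq2's Wald test gave 865, with 754 lower and 111 higher. A mean of at least 50 counts gave 93 higher, a collapse distance of 0.05 gave 42 higher, uncollapsed transcripts gave 1387, with 1336 lower and 51 higher, and second-set footprints over first-set RNA gave 2114, with 1411 lower and 703 higher. Second-set footprints over second-set RNA, added after the data were seen, gave 440, with 238 lower and 202 higher. With the replicate number as a block, 320 were called and 7 were higher. With genotype and number as a block, 195 were called, 193 lower and 2 higher. The numbers are not stated to pair libraries. Differences between replicates correlated across 3886 loci at -0.08 in footprints and -0.05 in RNA between WT and knockout, and between the assays at 0.35 in WT and -0.87 in the knockouts. With the knockout numbers crossed as a block, an alternative added after the data were seen, 1122 were called, 935 lower and 187 higher. Leaving out 1 replicate gave 0 to 1064 calls, 0 to 725 lower and 0 to 339 higher. Among these, calls were 733 (671 lower, 62 higher) without knockout replicate 1 in both assays, 254 (251 lower, 3 higher) without RNA WT replicate 1, 646 (612 lower) without RNA knockout replicate 2, and 55 were higher without footprint knockout replicate 1.

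The abundance difference of -0.28 was -0.60 with a mean of at least 50 counts and -0.47 after thinning to the smallest library, and -0.50 to -0.13 with libraries left out. It was -0.12 by quintile of second-set WT footprints. The efficiency difference of 0.01 was 0.51 with a mean of at least 50 counts and -0.83 to 0.38 with libraries left out, and the length difference of 0.17 was 0.03 to 0.31. Within these ranges the efficiency difference was -0.76 without WT replicate 1 in both assays and 0.25 without RNA knockout replicate 2. The length difference was 0.068 without WT replicate 1 and 0.061 without knockout replicate 1 in both assays, 0.030 without footprint WT replicate 1 and 0.28 without footprint knockout replicate 2. Footprint calls (863) were 1510 without a low-count filter, 285 with the replicate block, 425 by DESeq2 and 339 to 1630 with libraries left out. RNA calls (4771) were 1220 to 6402, and second-set footprint calls (3069) 1177 to 3618. The difference between sets (0) was 280 by DESeq2, 252 without a low-count filter, 26 with the replicate block and 0 to 463 with libraries left out. The cause was not tested. Of 324 values of named loci under alternatives, 298 stayed on the same side of the threshold, 18 lost the call and 8 gained one. In 27, from 8 of the 10 loci not called in efficiency, the estimate had the other sign. The 4 called loci, which were chosen for their change in the first set, kept their direction. Footprint depth limits loci outside the most abundant quintile.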

Other observations

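The knockout replicates differed in opposite directions in the assays. Across the 3886 loci averaging 50 or more counts in both assays, the log2 difference between knockout replicates 1 and 2 in footprints had a Pearson r of -0.87 with that in RNA-seq, whereas the same r between the WT replicates was 0.35. The points share their libraries, and loci are not independent. The median absolute log2 difference between replicates at these loci was 0.27 in knockout and 0.21 in WT footprints, and 0.18 in knockout against 0.06 in WT RNA-seq.

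Efficiency was also more widely spread over loci in the knockouts. At the same loci, its interquartile range on the log2 scale was 1.25 and 1.33 in the WT footprint libraries and 1.90 and 1.64 in the knockout libraries. The shallowest library, knockout replicate 1, had the widest range, and the part of depth in this was not tested.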
